A study of Mus musculus with 8 samples.

Results

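Hepatic stellate cells (HSC) are the pericyte-like mesenchymal cells of the space of Disse, between the sinusoidal endothelium and the hepatocytes. The HSC described here are the 72 cells that the authors' community clustering of the mesenchymal dataset placed in cluster 7 (#m7c), of 1337 mesenchymal cells and 3491 liver cells in all. Cells came from healthy C57Bl6 mice between 8 weeks and 1 year of age, carrying heterozygous reporter transgenes where one was used. They were sorted one by one into 384-well plates after enzymatic dissociation, and were sequenced with Smart-seq2, a full-length protocol without molecular identifiers. The series lists 8 pools of cells by sex and cell class, of which the male and the female mesenchymal pool held 68 and 4 HSC. Mesenchymal cells were enriched with the GFP reporters *Pdgfrb* GFP, *Pdgfra* H2bGFP and *Acta2* GFP or with an antibody against PDGFRα, so that the levels of *Pdgfra*, *Pdgfrb* and *Acta2* were in part set by the sort, and no label ties a cell to its mouse.

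In the healthy liver HSC store vitamin A as retinyl esters in lipid droplets, wrap the sinusoids, and secrete growth factors that act on hepatocytes and endothelium. After injury they can turn into collagen-producing myofibroblasts. Fibroblasts, in contrast, sit in the portal tract and the capsule, and capsular HSC (cHSC, #m3c) are a *Wt1*-expressing stellate population below the capsule. HSC were set against 562 fibroblasts of the multilevel clusters #m1, m4, m8 and m10 (460 male and 102 female), 113 cHSC, 467 vascular mural cells, 1106 endothelial cells, 651 immune cells, 203 hepatocytes and 194 cholangiocytes. The 119 cells of multilevel cluster #m9, mainly the study's *Wt1*-expressing capsular fibroblasts, were in none of these groups or of the single clusters below. Because the clusters were drawn on these same transcriptomes, a difference between HSC and another cluster is a description with no test. Levels are CPM, the counts summed over the male cells of a group and scaled to a total of 1000000, with the female pool beside them, and a gene is called higher or lower where the CPM differed at least 4-fold, a log2 ratio of at least 2 with 0.5 CPM added to each side.

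HSC lay on 8 plates, of which 5 male plates held at least 5 of them: 35 cells on liver_440s, 12 on liver_128s, 7 on liver_Acta2_184s, 6 on liver_705s and 5 on liver_Rb_573s. All 4 female HSC came from 1 plate, the only plate with female mesenchymal cells, so sex and plate cannot be told apart. An HSC had a median of 198215 counts (59283 to 551832) and 3396 genes, and a fibroblast had 225878 counts and 3958 genes. Plates differed in depth and RNA content: the median HSC had 2348 genes and 6.66% ERCC spike-in counts on liver_705s, 2023 genes and 83725 counts on liver_Rb_573s, and 6095 genes in the female pool. No cell name occurred in more than 1 pool.

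All 72 cells carried the authors' annotation HSC, as did 1 cell outside the cluster. Of the 5 identity markers *Lrat*, *Reln*, *Hhip*, *Plvap* and *Hgf*, at least 3 were present at 20 or more counts in 64 of the 72 cells, and all 5 in 21 cells. The other 8 cells had 1 or 2 of the markers at that level. The cluster was drawn on these same transcriptomes and the study named it with some of these genes, so their presence describes the cells and does not test the label.

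*Reln* encodes the secreted glycoprotein reelin, and of the 5 markers it had the largest difference from fibroblasts. Its level was 3965 CPM on liver_440s, 3436 on liver_128s, 3675 on liver_Acta2_184s, 3170 on liver_705s and 2372 on liver_Rb_573s, and 3199 CPM in the female pool. Male fibroblasts had 2.63 CPM and female ones 5.77 CPM, and the groups did not overlap on any plate. The log2 ratio was 10.19 in males and 9.0 in females, with a range of 9.52 to 11.15 within the 4 plates that held at least 5 cells of each group.

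*Lrat* encodes lecithin retinol acyltransferase, the enzyme that makes retinyl esters for storage. Its level was 2001 CPM on liver_440s, 2270 on liver_128s, 363 on liver_Acta2_184s, 719 on liver_705s and 4252 on liver_Rb_573s, and 2614 CPM in the female pool. The plates liver_Acta2_184s and liver_705s were low, and 20 or more *Lrat* counts were found in 1 of 7 cells on liver_Acta2_184s and 2 of 6 on liver_705s, against 33 of 35, 12 of 12 and 5 of 5 on the other male plates. Fibroblasts had 142 CPM in males and 95.2 CPM in females, and the log2 ratio was 3.72 in males, 4.77 in females and 2.83 to 6.08 within plates.

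*Plvap*, the diaphragm protein of fenestrae and caveolae best known from endothelium, was at 2704, 3023, 3702, 4570 and 9698 CPM on the same 5 plates in the same order, and at 1981 CPM in the female pool. The endothelial cells were lower, at 1298 CPM in males and 1647 CPM in females. Fibroblasts were at 93.0 and 135 CPM, a log2 ratio of 5.16 in males and 3.87 in females.

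*Hgf*, the hepatocyte growth factor, was at 757, 790, 406, 123 and 1207 CPM on the 5 plates and 505 CPM in the female pool. *Hhip*, which binds and holds back hedgehog ligands, was at 290, 614, 173, 191 and 102 CPM and at 63.7 CPM. Every one of these plates lay above the male fibroblast level of 82.4 CPM for *Hgf* and 26.2 CPM for *Hhip*, with log2 ratios of 3.01 and 3.57. In the female pool the ratios were 4.35 and 3.24.

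**Figure D1:**
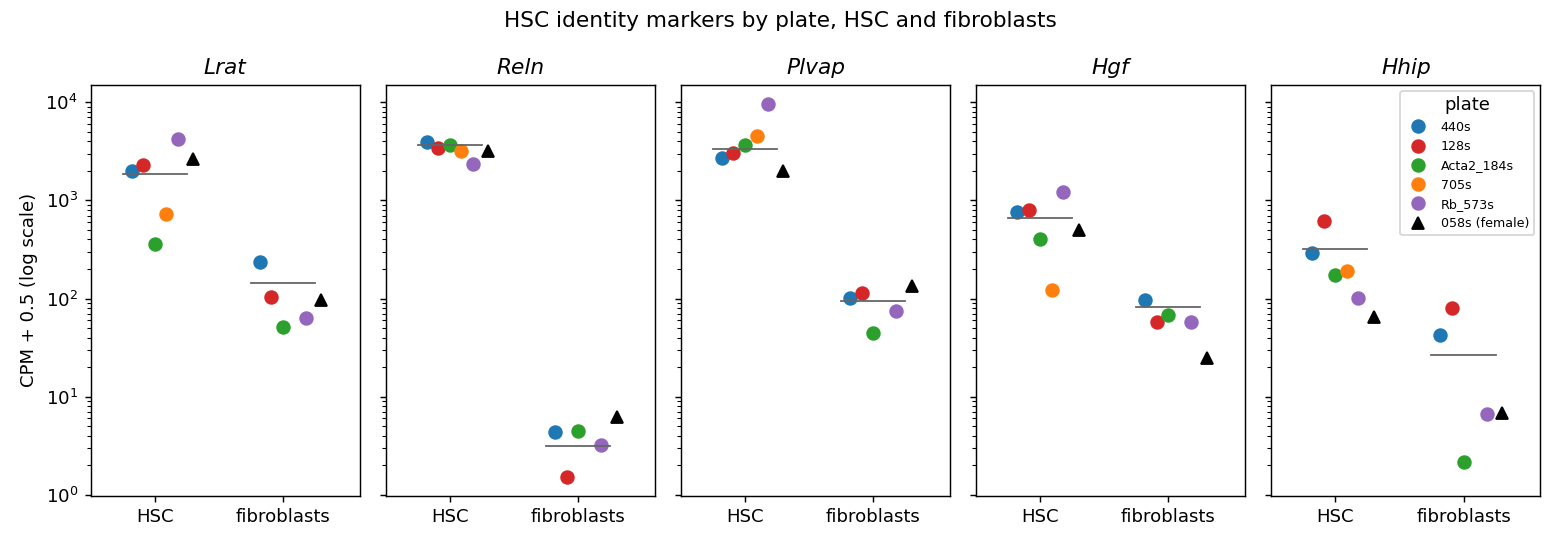
Level of the 5 identity markers in CPM on a log axis, with 0.5 added. Circles are male plates, triangles the female plate, and bars the male pool. HSC points lie above the fibroblast points of the same plate for each marker, by the widest gap for *Reln*, and the plates liver_Acta2_184s and liver_705s have the lowest *Lrat*.

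Counting error was small beside these gaps. For *Hhip*, with 4419 counts in male HSC, the exact Poisson 95% interval was 309 to 328 CPM, and for *Reln* in fibroblasts, with 282 counts, it was 2.33 to 2.96 CPM. Such intervals cover counting error only, since reads without molecular identifiers are not independent molecules. The spread between plates was much wider and is the error to read the levels against.

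Markers of other liver cells were then summed, and their part in the differences below was not tested. The summed level of 7 hepatocyte markers was 769 CPM in HSC (206 to 1122 across plates) and 906 CPM in fibroblasts, of which *Cyp2e1* gave 503 and 717 CPM. The other 6 summed to 266 and 190 CPM, with 5 of the 6 at a higher level in HSC. The sum of 8 endothelial markers was 99.2 CPM (33.1 to 345) and 82.1 CPM, of which *Egfl7* gave 83.6 CPM in HSC. The 6 smooth muscle markers summed to 906 CPM in HSC and 1115 CPM in fibroblasts. *Cdh5*, *Kdr*, *Tek*, *Stab2* and *Emcn*, which define endothelium, were each at or below 1.22 CPM in HSC, against 429 to 2094 CPM in endothelial cells. Of all 8 endothelial markers, 6 were under 5 CPM in HSC, and all 8 were called lower than in endothelial cells. Against fibroblasts *Lyve1* went the other way in males, with a log2 ratio of 2.53, and was at −2.97 in females. The 8 immune markers summed to 18.4 CPM in HSC, the 5 mesothelial markers to 0.792 CPM, the 4 Schwann cell markers to 2.30 CPM, and the 5 cholangiocyte markers to 9.28 CPM. The Schwann cell gene *Sox10* and the epithelial cadherin *Cdh1* were at 0.

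Against fibroblasts, 20366 genes had at least 10 counts over both groups, of which 857 (4.21%) were at least 4-fold higher in HSC and 2254 (11.1%) at least 4-fold lower, with a median log2 ratio over all of them of −0.22. These shares are the background for the lists that follow. Within the 4 plates the counts were 348 and 4201, without liver_440s the lower count was 3774, and in the female pool it was 8383. Of the 857 genes, 215 were also called higher within plates and 130 in the female pool. The ratio of these 857 genes had the opposite sign for 524 in the female pool, 166 without liver_440s and 116 within plates, so most of the higher calls turned direction in the pool with 4 HSC. Of the 2254 lower genes, 1504 were also called lower in the female pool and 195 had the opposite sign there.

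Among 16 of 18 retinoid storage and metabolism genes with enough counts, 2 were called higher and 2 lower, a median log2 ratio of −0.41. The higher genes were *Lrat* and *Bco1*, which encodes the beta-carotene oxygenase that cleaves carotene into retinal. *Bco1* was at 229, 392, 336, 57.1 and 684 CPM on the 5 plates and 34.4 CPM in the female pool, against 2.88 and 2.83 CPM in fibroblasts, a log2 ratio of 6.49 and 3.39. *Adh1*, an alcohol dehydrogenase that oxidizes retinol, was lower in HSC at 38.9 CPM against 178 CPM, and *Aldh1a2*, which makes retinoic acid, had 3 counts in male HSC (0.216 CPM) against 13.3 CPM. The fibroblast level of *Aldh1a2* was that of cluster #m4, at 55.4 CPM, since #m1, #m8 and #m10 were at 0.218, 0 and 0.149 CPM. *Plin2*, the coat protein of lipid droplets, was at 182 and 52.3 CPM, a ratio of 1.79 that did not reach 4-fold.

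HSC carried a set of secreted ligands: of 19 growth factor and guidance ligands, 8 were called higher and 3 lower, with a median log2 ratio of 0.90. The list summed to 22006 CPM in male HSC (17714 to 23047 across plates) and 22402 CPM in females, against 8435 and 7873 CPM in fibroblasts. *Gdf2* encodes BMP9, which circulates and signals to endothelium through ALK1. It was at 2152, 2380, 1828, 1020 and 1794 CPM on the 5 plates and 2297 CPM in the female pool, against 5.36 and 6.08 CPM in fibroblasts, a log2 ratio of 8.44 and 8.45 and of 6.58 to 11.36 within plates. No HSC plate overlapped with the fibroblasts.

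*Rspo3*, an R-spondin that strengthens Wnt signaling, was at 641, 599, 1012, 379 and 614 CPM and at 1140 CPM in females, against 9.73 and 17.4 CPM in fibroblasts, a log2 ratio of 5.94 and 6.0. *Angptl6*, an angiopoietin-like secreted protein, was at 1888, 1696, 1163, 1827 and 3631 CPM and 2971 CPM in females, against 17.2 and 60.3 CPM, a ratio of 6.66 and 5.61. *Bmp5*, a BMP family ligand, was at 878 CPM against 88.8 CPM, a ratio of 3.30 (4.79 in females). *Ntn1* (netrin-1) and *Sema6d*, both axon guidance genes, had ratios of 3.39 and 2.90 in males and 0.89 and 0.45 in females, where they did not reach 4-fold.

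The chemokine *Cxcl12*, which retains CXCR4-bearing cells, was high in both groups, at 6938 CPM in HSC and 3727 CPM in fibroblasts. The ligands called lower were *Vegfd*, a lymphangiogenic factor, at 25.5 CPM against 318 CPM, *Igf1* at 24.3 CPM against 165 CPM, and *Bmp6*, at 0.288 CPM (4 counts) against 3.03 CPM. Both *Vegfd* and *Igf1* were lower than in fibroblasts within each of the 4 plates. In females *Vegfd*, *Igf1* and *Bmp6* had ratios of −1.59, −1.80 and −0.79, and none reached 4-fold.

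Secreted or membrane-bound inhibitors of such ligands split evenly, with 3 of 11 called higher and 3 lower and a median log2 ratio of −0.97. *Tnfrsf11b* encodes osteoprotegerin, a decoy receptor for RANKL. It was at 201, 268, 247, 312 and 594 CPM on the 5 plates and 354 CPM in females, against 0.784 and 1.13 CPM in fibroblasts, a log2 ratio of 7.5 and 7.76, with no overlap. In males *Tnfrsf11b* was at 492 CPM in the mural cluster #m9c, and at 72.3 CPM in the cells of #m9 outside the contrast. *Sfrp1* and *Wif1*, which bind Wnt proteins, were at 3.89 and 0.360 CPM in HSC against 935 and 87.5 CPM in fibroblasts. *Frzb*, another Wnt-binding protein, was at 431 CPM against 82.0 CPM in males and at 5.03 CPM against 40.2 CPM in females, so its direction differed between the pools. *Chrd* (chordin), a BMP antagonist, was at 4.10 CPM against 29.7 CPM in males and at 437 CPM against 4.14 CPM in females, and also differed in direction. *Bambi*, a pseudoreceptor that dampens TGFβ signaling, had a ratio of 1.33 and did not reach 4-fold.

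Receptors for hormones, peptides and lipid mediators were mostly higher in HSC, 12 of 16, with none called lower and a median log2 ratio of 2.84. The list summed to 9021 CPM in male HSC (6171 to 11025 across plates) and 6950 CPM in females, against 1777 CPM (1228 to 2695) and 1285 CPM in fibroblasts. *Agtr1a*, the angiotensin II receptor, was nearly constant over plates at 1165, 1112, 1008, 1126 and 1115 CPM, with 1212 CPM in females, against 190 and 158 CPM in fibroblasts, a ratio of 2.55 and 2.94. The endothelin receptor *Ednra* was at 1900, 1479, 1645, 635 and 1133 CPM but at 139 CPM in the 4 female cells, against 197 and 52.5 CPM, a ratio of 3.01 and 1.40. Its relative *Ednrb* was at 1186, 2049, 887, 533 and 220 CPM and 1754 CPM, against 304 and 123 CPM, a ratio of 2.0 and 3.83.

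Receptors of vasoactive and calciotropic hormones were among the members called higher. *Vipr1*, the receptor of vasoactive intestinal peptide, was at 673 CPM in males and 1116 CPM in females, against 19.7 and 25.3 CPM, although liver_705s had 44.5 CPM. *Calcrl* and *Ramp1*, which together form the receptor for calcitonin gene-related peptide, were at 499 and 408 CPM against 13.3 and 20.5 CPM. *Pth1r*, the parathyroid hormone receptor, was at 925, 198, 663, 686 and 548 CPM on the 5 plates and 137 CPM in females, against 45.6 and 59.1 CPM, a ratio of 3.98 and 1.20. *Adra2b*, an alpha-2 adrenergic receptor, was at 813 CPM against 75.9 CPM, a ratio of 3.41 (3.20 in females).

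Several members of that list rested on few cells. *P2ry14*, a receptor for UDP-sugars, had a count in 33.3% of HSC, at 131 CPM in males and 323 CPM in females against 1.73 and 0.515 CPM. The succinate receptor *Sucnr1* had a count in 37.5% of HSC, at 189 CPM in males and 0 in females. The prostaglandin receptor *Ptger2* was at 113 CPM in males and 1.68 CPM in females. *Epor*, the erythropoietin receptor, had a count in 9.72% of HSC, at 96.7 CPM on liver_440s and 0 to 0.817 CPM on the other male plates, and without liver_440s its log2 ratio was −3.48 instead of 2.45. In females, on another plate, *Epor* was at 75.5 CPM against 9.32 CPM, a ratio of 2.95.

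Of 13 growth factor and cytokine receptors, 12 had enough counts, 3 were called higher and none lower, with a median of 0.74. *Fgfr2* was at 1792, 2144, 2342, 1029 and 521 CPM on the 5 plates and 2121 CPM in females, against 101 and 38.8 CPM in fibroblasts, a log2 ratio of 4.15 and 5.75. *Acvr2a*, an activin receptor, and *Tnfrsf21*, a death receptor family member, had ratios of 2.36 and 4.77. *Tnfrsf21* ranged from 0 CPM on liver_Acta2_184s to 2854 CPM on liver_Rb_573s. *Met*, the receptor of the hepatocyte growth factor that these cells transcribe, had no count in any of the 72 HSC, which allows a share of cells with a count of up to 4.17%, and was at 21.7 CPM in hepatocytes. *Pdgfra* was lower in HSC than in fibroblasts, at 224 and 580 CPM, by less than 4-fold, and *Pdgfrb* was at 852 and 784 CPM, with 20.1 CPM on liver_705s. Both were among the genes the sort used.

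In the lectin pathway of complement, 3 of 12 genes were called higher and 2 lower, with a median of 0.16. The higher ones start the pathway. *Fcna* (ficolin A) was at 1588, 1118, 2092, 1915 and 6046 CPM on the 5 plates and 1805 CPM in females, against 8.37 and 33.5 CPM in fibroblasts. *Colec10*, a soluble collectin, was at 1364, 654, 618, 882 and 1171 CPM and 269 CPM in females, against 1.08 and 0.463 CPM. *Masp1*, the serine protease that binds such lectins, was at 1438 CPM against 107 CPM, a log2 ratio of 3.74 and 4.09. *Colec11* had a ratio of 1.98 in males and 2.20 in females.

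The genes called lower were *C3* and *Colec12*. *C3*, the central component, was at 8.74, 15.9, 6.59, 8.39 and 45.3 CPM on the 5 plates and 107 CPM in females, against 1728 and 3083 CPM in fibroblasts, a log2 ratio of −7.23 and −4.84. *Colec12*, a membrane scavenger receptor, was at 62.9 CPM against 656 CPM in males and 585 CPM against 878 CPM in females.

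Of 16 transcription factors 4 were called higher and 3 lower, with a median of 1.05. *Lhx2*, a LIM homeodomain factor known to keep HSC quiescent, was at 290, 142, 294, 5.04 and 4.53 CPM on the 5 plates and 159 CPM in females, against 3.12 and 2.19 CPM in fibroblasts. The nuclear receptor genes *Nr1h4* (the bile acid receptor FXR) and its relative *Nr1h5* were at 584 and 280 CPM in HSC against 29.3 and 0.252 CPM, log2 ratios of 4.30 and 8.54. On liver_705s *Nr1h4* and *Nr1h5* were at 78.9 and 2.52 CPM, so that plate was low for all 3 of these factors. *Wt1* was at 21.8 CPM against 2.13 CPM in males and 2.52 CPM against 13.8 CPM in females. The male cells of #m9, outside this contrast, were at 181 CPM. *Osr1*, a factor of connective tissue fibroblasts, was at 0.360 CPM against 36.5 CPM, and *Pparg* at 0.720 CPM against 5.44 CPM. *Foxf2* had no count in HSC, and *Hand2*, *Tcf21* and *Gata4* had ratios of 1.58, 0.97 and 0.16.

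Of 12 pericyte genes 4 were called higher and 3 lower, with a median of 0.89. *Rgs5*, a regulator of G protein signaling, was at 743, 991, 315, 494 and 1769 CPM on the 5 plates and 890 CPM in females, against 18.1 and 36.9 CPM in fibroblasts, a log2 ratio of 5.36 and 4.57. *Kcnj8* and *Abcc9* encode the pore and the sulfonylurea subunit of a vascular potassium channel, and were at 768 and 2958 CPM against 227 and 939 CPM, ratios of 1.76 and 1.66 that did not reach 4-fold. *Ano1*, a calcium-activated chloride channel, was at 417 CPM against 62.1 CPM, and *Mcam* had a ratio of 2.90 in males and −1.45 in females. *Vtn* (vitronectin) was lower, at 7.05 CPM against 61.3 CPM. *Cspg4* (NG2) was at 0.144 CPM and *Higd1b* had no count in males, so both were at or under the 0.216 CPM that 3 counts give.

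Among 15 genes of neural tissue, 8 were called higher and none lower, with a median of 2.45. *Ank3* (ankyrin G) was at 187, 204, 194, 479 and 247 CPM on the 5 plates and 437 CPM in females, against 1.32 and 0.618 CPM in fibroblasts, a log2 ratio of 6.87 and 8.61. *Mapt*, which encodes tau, was at 195 CPM against 1.87 CPM, a ratio of 6.37 (8.54 in females), with 4.53 CPM on liver_Rb_573s. *Lrrc4c*, *Ntm*, *Cdh2*, *Cadm3* and *Robo2*, which serve cell adhesion and axon guidance, had male ratios of 6.65, 6.19, 3.55, 3.47 and 2.45, and *Ntm* was reversed in females at −1.48. *Gfap*, a classic stellate cell marker, had a count in 6.94% of HSC and 6.48 CPM in males, and *Des* (desmin) was at 374 CPM against 653 CPM in fibroblasts, a ratio of −0.81.

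The matrix lists held genes called in both directions. Of 12 basement membrane genes 2 were called higher and 3 lower (median 0.36), and of 22 interstitial matrix genes 4 were higher and 3 lower (median −0.17). *Ecm1*, which holds latent TGFβ inactive in the liver, was at 6756, 6700, 6375, 7784 and 19516 CPM on the 5 plates and 6100 CPM in females, against 1659 and 1300 CPM in fibroblasts, a log2 ratio of 2.11 and 2.23. *Lama1*, *Hmcn1*, *Lama4* and *Nid2* had ratios of 7.14, 2.57, −4.94 and −2.15 in the basement membrane list, and *Npnt* had no count in male HSC. *Efemp1*, *Postn* and *Fn1* were the other interstitial matrix genes called higher, with ratios of 2.90, 2.16 and 2.09. The male cells of #m9, outside this contrast, were at 1245, 188 and 588 CPM, against 1443, 605 and 559 CPM in HSC. *Postn*, which encodes periostin, was at 605 CPM in HSC and at 558 CPM in the fibroblast cluster #m4, against 0.799 to 4.18 CPM in the other 3 fibroblast clusters, and its ratio on liver_440s was 0.93. The fibrillar collagens *Col1a1*, *Col1a2* and *Col3a1* were lower in the male HSC pool by less than 4-fold, at 1231, 1658 and 2471 CPM against 4133, 3768 and 4509 CPM. All 3 were lower on each of the 4 plates, with log2 ratios of −0.38 to −2.38 for *Col1a1*, and in females *Col1a1*, *Col1a2* and *Col3a1* had ratios of −3.74, −2.01 and −1.34. *Fmod* (fibromodulin) was at 18.7 CPM against 1632 CPM and *Col15a1* at 4.53 CPM against 211 CPM, and *Eln* (elastin) at 88.1 CPM against 363 CPM.

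Of 8 tested contractile and activation genes none was called higher and 1, *Timp1*, was lower, at 9.72 CPM against 74.1 CPM. *Acta2* was at 228 CPM in HSC and 168 CPM in fibroblasts, *Mki67* had no count in HSC, and *Top2a* had 1 count in males.

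Genes that mark fibroblasts were lower in HSC, with 10 of 14 called lower, none higher and a median log2 ratio of −4.47. The list summed to 3374 CPM in male HSC (1527 to 4705 across plates) and 18802 CPM in fibroblasts (15140 to 26630). *Dpep1*, a dipeptidase, was at 7.49 CPM against 1372 CPM, with −11.24 to −5.94 within plates. *Mgp* (matrix Gla protein), *Entpd2* (an ectonucleotidase) and *Thy1* (CD90) were at 11.2, 1.58 and 0.648 CPM in HSC against 887, 216 and 86.1 CPM.

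Interferon-stimulated genes were 2 higher and 1 lower of 16, with a median of 1.18. *Shfl*, which blocks ribosomal frameshifting of viral RNA, was higher in each pool, at 576 and 959 CPM against 92.5 and 181 CPM. *Oas2* was higher in males and lower in females, and *Cxcl10* was at 0.288 CPM (4 counts) against 12.2 CPM.

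Immediate early genes, which are induced within minutes by tissue dissociation among other stimuli, were lower in male HSC: 10 of 12 were called lower, none higher, with a median of −2.46. The 12 genes summed to 1958 CPM in male HSC (597 to 2539 across plates) and 11715 CPM in male fibroblasts (6960 to 13391), so no plate overlapped, but the sums were 6889 and 9761 CPM in the female pool. *Fos* was at 439, 163, 119, 0 and 74.8 CPM on the 5 plates and 1149 CPM in females, against 1879 and 2211 CPM in fibroblasts, a log2 ratio of −2.66 and −0.94. *Egr1* was at 200 CPM against 2418 CPM in males (−3.59) and 185 CPM against 793 CPM in females (−2.09). In females 5 of the 12 were called lower, and *Jun*, *Zfp36* and *Ier2* had ratios of 0.58, 0.22 and 0.02. Within plates 11 of the 12 genes, all but *Hspa1b*, were lower on 4 of 4 plates.

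**Figure D2:**
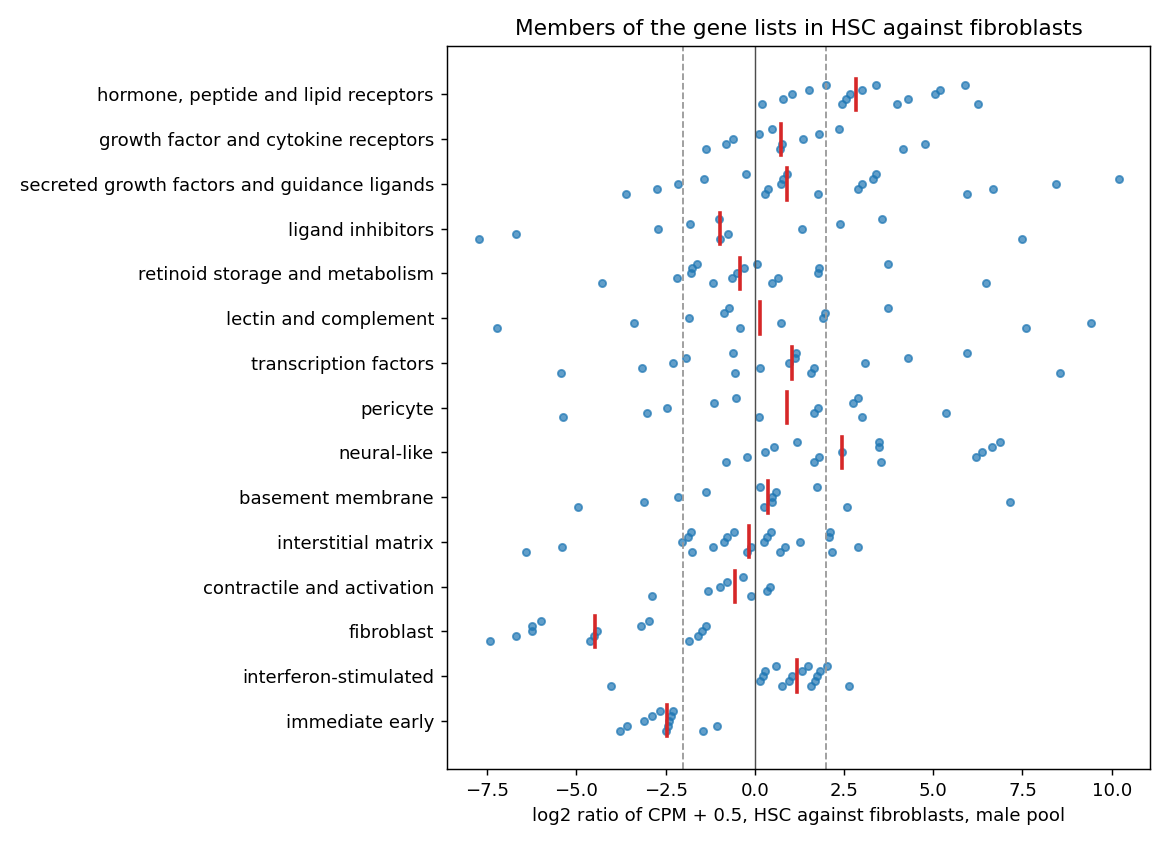
Log2 ratio of HSC over fibroblasts in the male pool for the genes of each list, with 1 point per gene, the list's median as a bar and dashed lines at the 4-fold limits. Hormone receptors (median 2.84) and neural genes (2.45) lie to the higher side, and immediate early (−2.46) and fibroblast genes (−4.47) to the lower side.

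An HSC signature that the authors drew from another dataset of uninjured livers was read as a further list. The study used it to name #m7c, so its direction is not independent evidence. The study's table of it lists 186 symbols, a few more than its text gives as the size of the signature, and 2 of them were not found among the counted genes. Of the listed genes 183 had enough counts, 80 were called higher and 2 lower, with a median log2 ratio of 1.76. Its summed level was 82577 CPM in male HSC (69719 to 110946 across plates) and 78529 CPM in females, against 20615 CPM (18246 to 24803) and 17651 CPM in fibroblasts.

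Ranked by size among genes with a count in at least 50% of the cells, the 8 genes farthest above fibroblasts were *Reln*, *Colec10*, *Nr1h5*, *Gdf2*, *Tlcd4*, *Fcna*, *Gm10475* and *Fcnaos*, with male log2 ratios of 6.97 to 10.19. *Tlcd4*, a membrane protein gene, was at 1137, 646, 434, 395 and 974 CPM on the 5 plates and 369 CPM in females, against 2.76 and 1.24 CPM. *Fcnaos* is antisense to *Fcna*, and if the counting ignored strand, which is not known here, their reads cannot be told apart. The 8 farthest below were *Penk*, *Spon1*, *Lamc3*, *Sfrp1*, *Cilp*, *Dpep1*, *Cpxm2* and *C3*, with ratios of −7.23 to −8.13. *Penk*, which encodes proenkephalin, was at 1.22 CPM in male HSC against 482 CPM, and *Spon1*, a secreted matrix protein, at 3.45 CPM against 1052 CPM.

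Against cHSC, the capsular stellate population, 1389 of 16280 genes (8.53%) were at least 4-fold higher in HSC and 1845 (11.3%) lower, with a median of −0.06. The higher count was 710 within plates. *Lrat*, *Plvap* and *Hhip* were called higher of the 5 identity markers in males. In females *Plvap* had a ratio of 1.49 and did not reach 4-fold. *Hhip* was at 0.106 CPM in the cHSC of males and 0.499 CPM in those of females, and was first among the genes higher in HSC by the ranking rule. *Reln* was at 3663 CPM in HSC and 1529 CPM in cHSC, and *Hgf* at 666 and 302 CPM, both below 4-fold. *Wt1*, the mesothelial and capsular factor, was at 21.8 CPM in HSC and 414 CPM in cHSC, and *Ncam1* at 44.3 and 343 CPM.

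Of 16 hormone receptors 7 were called higher and none lower in males (median 1.87). In females *Ednra* and *Ptger2* had ratios to cHSC of −0.91 and −2.59, and the other members called higher stayed past 4-fold. Among members under 4-fold in males, *Sucnr1* was at −6.70 in females. *Calcrl* was at 499 CPM in HSC and 12.7 CPM in cHSC, and *Vipr1* at 673 and 80.5 CPM. Of 9 pericyte genes with enough counts 5 were called higher in males, led by *Rgs5* at 766 CPM against 6.26 CPM. In females *Rgs5* and *Ano1* stayed past 4-fold, with ratios of 4.69 and 2.92. *Kcnj8*, *Ednra* and *Mcam* did not, at 1.35, −0.91 and −0.11. Of 14 fibroblast genes 7 were called lower and none higher (median −2.39), and *Fmod* was at 18.7 CPM against 937 CPM. Of 14 transcription factors 1, *Wt1*, was called lower and none higher, shares near those of all genes, with *Lhx2* at 221 and 164 CPM and *Nr1h5* at 280 and 208 CPM. In females *Gata6* and *Hic1* had ratios to cHSC of −4.39 and −5.22, and *Gata4* and *Ets1* of 2.47 and 2.24. Of 18 ligands 2, *Rspo3* and *Angptl6*, were called higher and none lower (median 0.90). Of 13 growth factor and cytokine receptors 1 was called higher and 1 lower (median 0.39). *Gdf2* was at 2042 CPM in HSC and 1012 CPM in cHSC, *Fgfr2* at 1794 and 899 CPM, *Masp1* at 1438 and 683 CPM, and *Ntn1* at 406 and 454 CPM. *Adamtsl2* was at 1180 CPM in HSC and 2104 CPM in cHSC. The largest differences by the ranking rule were *Hhip*, *Rgs5*, *Colec10*, *Calcrl* and *Tlcd4* on the higher side and *Fgl2*, *Igfbp6*, *Fxyd6*, *Lsp1* and *Fmod* on the lower side.

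Against vascular mural cells 943 of 18830 genes (5.01%) were higher in HSC and 2439 (13.0%) lower, with a median of −0.20. The higher count was 440 within plates. All 6 smooth muscle markers were called lower (median −5.11): *Myh11* was at 28.7 CPM against 1923 CPM, *Acta2* at 228 CPM against 4127 CPM, and *Cnn1* at 0.360 CPM (5 counts) against 502 CPM. Of 12 pericyte genes 6 were lower, among them *Notch3* (52.3 CPM against 981 CPM) and *Vtn* (7.05 CPM against 658 CPM), and 1, *Abcc9*, higher, while *Rgs5* was at 766 and 1247 CPM. Ligands were 9 higher and 2 lower of 19, and neural genes 8 higher and 1 lower of 15. *Lrat* did not reach 4-fold, since the mural clusters were unequal: it was at 1554 CPM in #m5c and 1100 CPM in #m9c, against 1873 CPM in HSC, and at 1.45 CPM in #m2c and 1.22 CPM in #m15c. *Reln* followed with 495 and 510 CPM in #m5c and #m9c, against 3663 CPM in HSC. *Pcp4l1*, *Corin* and *Olfml2a*, together with *Cnn1* and *Actg2*, were the genes farthest below mural cells.

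Outside the mesenchyme, the share of genes called depended on the class. Against endothelial cells 7.43% of genes were higher and 13.4% lower, against immune cells 12.5% and 17.8%, against hepatocytes 27.1% and 15.5%, and against cholangiocytes 10.5% were higher and 3590 of 18882 genes lower, the largest lower share of the 4 classes. A gene at least 4-fold higher than in each of these 4 classes was found 755 times. *Gdf2*, *Lrat*, *Ednra* and *Colec10* recurred among the largest differences. *Gdf2* was at 0.208 CPM in endothelial cells, 1.57 in immune cells, 0.892 in hepatocytes and 0.0889 in cholangiocytes, against 2042 CPM in HSC. *Lrat* was at 0.912, 0.809, 1.28 and 0.285 CPM in the same 4 classes.

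Some HSC genes had a like level in 1 other class in males. *Rspo3* was at 736 CPM in endothelial cells and 626 CPM in HSC, *Calcrl* at 521 and 499 CPM, and *Fcna* at 1534 CPM in immune cells and 1706 CPM in HSC. In females *Rspo3* was at 1031 and 1140 CPM, but *Calcrl* at 689 CPM in endothelial cells and 48.6 CPM in HSC, a log2 ratio of −3.81, and *Fcna* at 2734 CPM in immune cells and 1805 CPM in HSC. *Rbp4*, the retinol carrier that hepatocytes secrete, was at 1367 CPM in hepatocytes and 14.7 CPM in HSC. *Stab2*, *F8*, *Kdr*, *Oit3* and *Robo4* were the genes farthest below endothelial cells, each at or under 1.22 CPM in HSC, as were *Cd5l*, *Vsig4*, *Clec4f*, *Cybb* and *Cd300ld* against immune cells, each at or under 1.08 CPM. *Agxt*, *Aldh8a1*, *Ehhadh*, *Pck1* and *Haao* had the same place against hepatocytes, and *Cd24a*, *Scara3*, *Cldn3*, *Epcam* and *Plet1* against cholangiocytes.

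**Figure D3:**
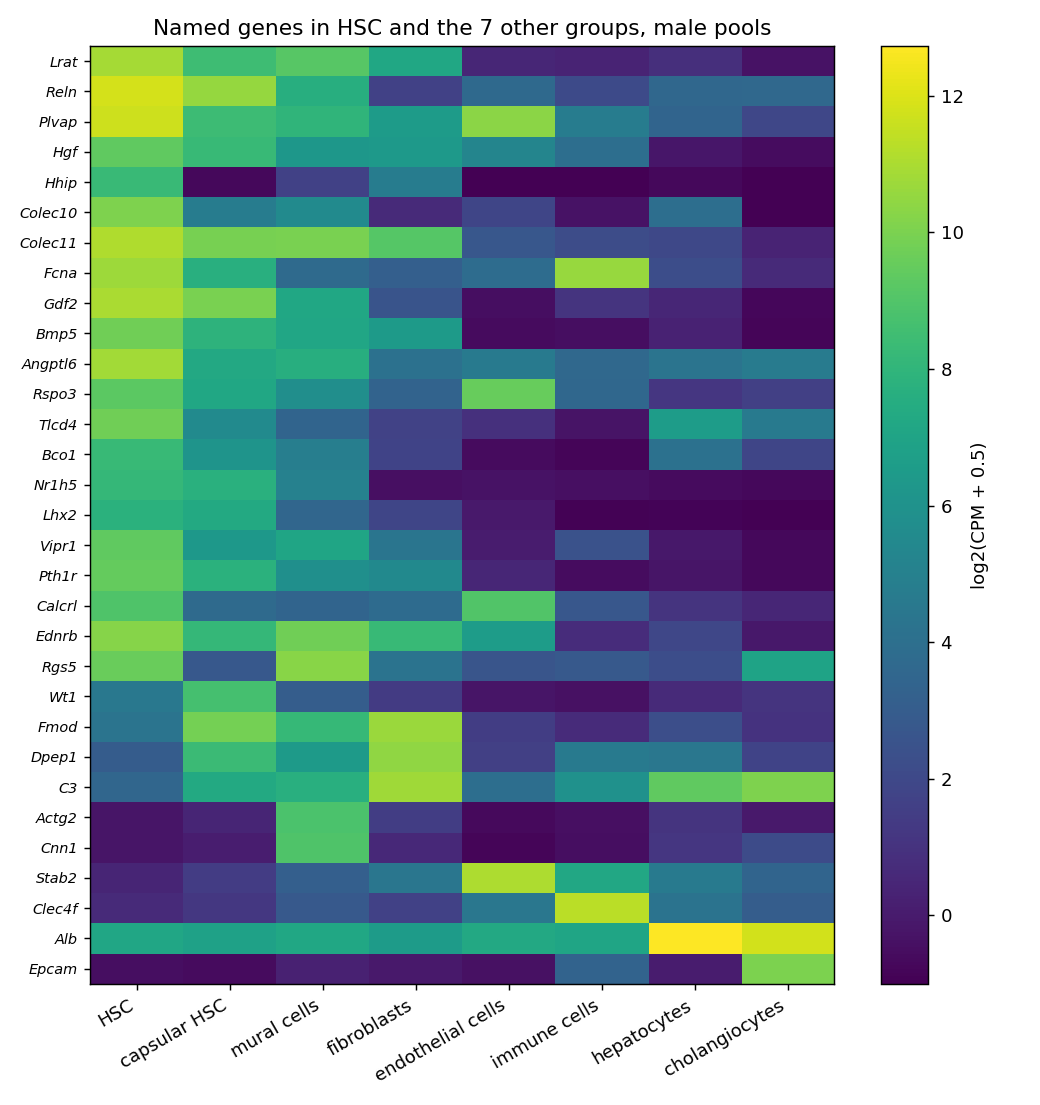
Level of named genes in the male pool, as log2(CPM + 0.5), with genes in rows and HSC and the 7 other groups in columns. *Rspo3* and *Plvap* are also present in endothelial cells, *Fcna* in immune cells, and *Reln* and *Gdf2* in cHSC.

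Genes at least 4-fold higher in HSC than in each of the 7 groups numbered 155 of 14740 (1.05%). With a count in at least 50% of HSC, 8 remained: *Angptl6*, *Colec10*, *Tlcd4*, *Vipr1*, *Tnfrsf21*, *Gm26903*, *Hhip* and *Bco1*. These groups pool unlike clusters. Against each of the 9 fibroblast and mural clusters taken singly, 96 of the 155 genes and 1 of the 8, *Tlcd4*, were still at least 4-fold higher, and the other 7 were not. *Angptl6* had a count in 95.8% of HSC, at 1791 CPM against 191 CPM in mural cells, the next group, but 574 CPM in the mural cluster #m9c (29 male cells). *Colec10* had a count in 73.6%, at 1091 CPM against 47.5 CPM in mural cells and 350 CPM in #m9c. *Tnfrsf21* and *Bco1*, at 462 and 303 CPM in HSC, were at 264 and 175 CPM in #m9c. *Vipr1*, at 673 CPM, was at 254 CPM in #m8c, *Gm26903*, at 451 CPM, at 142 CPM in #m5c, and *Hhip*, at 318 CPM, at 96.4 CPM in the fibroblast cluster #m4. *Tlcd4* was at 869 CPM against 94.9 CPM in hepatocytes and at most 41.3 CPM in these clusters. *Bmp10*, which like *Gdf2* encodes a ligand of ALK1, was at 336 CPM in males and 36.1 CPM in females and had a count in 43.1% of HSC, against 14.7 CPM in cHSC. It falls outside the naming rule and was chosen after its values were seen.

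Earlier work named *Ngfr* as a marker of periportal and *Adamtsl2* as a marker of pericentral HSC, and the study read *Lama1* and *Rspo3* beside them. The spread of these genes between single HSC was described here, together with *Myh11*, *Hhip* and *Cdh3*, and no position in the lobule was measured for any cell. *Adamtsl2*, a secreted ADAMTS-like glycoprotein, and *Rspo3* were present in most cells. *Adamtsl2* had a count in 70 of 72 cells (97.2%, exact binomial 95% interval 90.3 to 99.7%) and *Rspo3* in 64 (88.9%, 79.3 to 95.1%), with 20 or more counts in 56 and 51 cells. Their coefficients of variation across cells were 0.92 and 1.14, beside 0.65 to 0.97 for *Reln*, *Plvap*, *Lrat* and *Hgf*. *Adamtsl2* was not particular to HSC: 88.4% of fibroblasts had a count, and its level was 870 CPM in male fibroblasts against 1180 CPM in male HSC.

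*Ngfr*, the p75 neurotrophin receptor, was present in a part of the cells. It had a count in 40 of 72 cells (55.6%, 43.4 to 67.3%) and 20 or more counts in 26 (36.1%), with a coefficient of variation of 1.61 and 34.5% of the summed level in the 5 highest cells. By plate, 20 or more counts were found in 17 of 35 cells on liver_440s, 6 of 12 on liver_128s, 0 of 7 on liver_Acta2_184s, 1 of 6 on liver_705s and 2 of 5 on liver_Rb_573s, and in 0 of 4 female cells. Positive and negative cells thus stood side by side on the largest plate, while the plates also differed. The pooled ratio to fibroblasts was 1.79 in males and −5.32 in females.

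*Hhip* was similar, with a count in 37 cells (51.4%, 39.3 to 63.3%), 20 or more counts in 30 (41.7%) and a coefficient of variation of 1.79. *Lama1*, the laminin alpha-1 chain, had a count in 18 cells (25.0%, 15.5 to 36.6%) and 20 or more counts in 14, with 67.0% of its level in 5 cells. On liver_440s 10 of 35 cells had 20 or more *Lama1* counts, and on liver_Rb_573s none of 5 had a count. Its level was 124 CPM in male HSC and 51.4 CPM in cHSC, against 0.382 CPM in fibroblasts.

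*Myh11*, the smooth muscle myosin heavy chain, had a count in 31 cells (43.1%) but 20 or more counts in 7 (9.72%), of which 4 were the female cells. Its 5 highest cells held 75.2% of the level. *Cdh3* (P-cadherin) had 20 or more counts in 5 cells (6.94%), and 5 cells held 89.4% of its level.

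Background was gauged in immune cells, which should lack most of these genes. A count was found in 4.61% of immune cells for *Ngfr*, 1.08% for *Lama1*, 6.91% for *Myh11*, 8.29% for *Adamtsl2*, 25.5% for *Rspo3*, 0.154% for *Hhip* and 7.53% for *Cdh3*, at a median depth of 252531 counts per cell against 198215 in HSC. At 20 or more counts the immune share was at most 1.08% for each of these 7 genes.

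**Figure D4:**
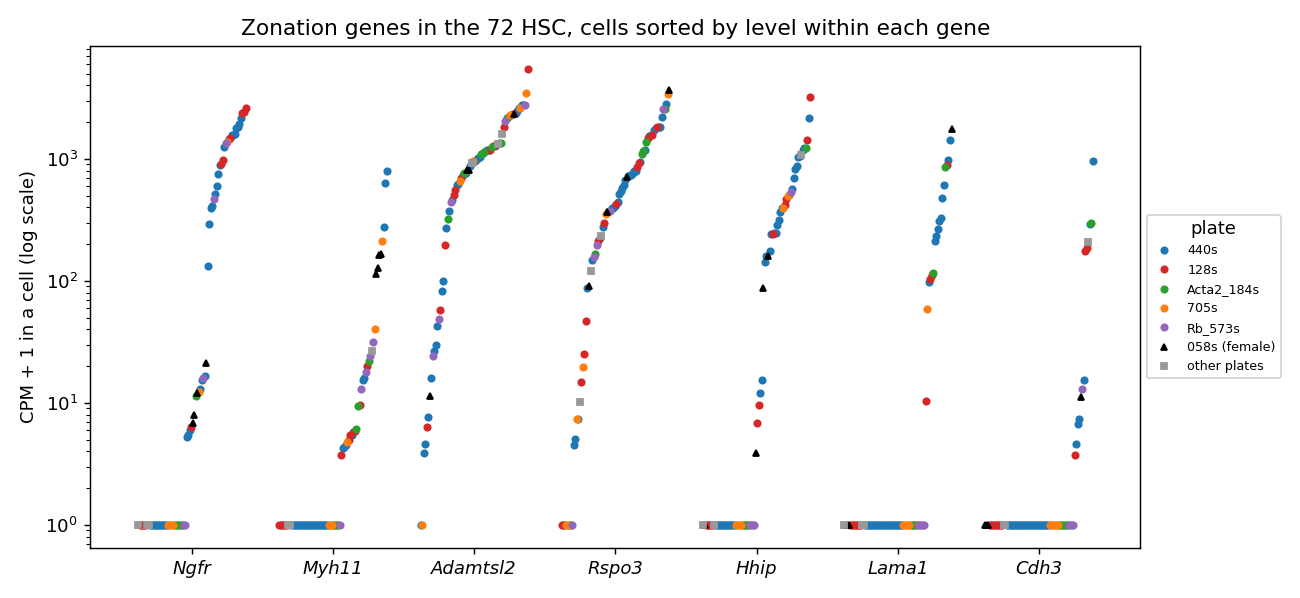
Level of 7 zonation genes in each of the 72 HSC, as CPM + 1 on a log axis, with 1 point per cell, colors for plates and triangles for female cells. *Adamtsl2* and *Rspo3* fill most cells, and *Ngfr*, *Hhip* and *Lama1* have many cells at 0, some at low levels and some at high levels.

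Pairs of zonation genes were weakly related across cells. Over these 7 genes, the 21 Spearman correlations across 72 cells ranged from −0.29 to 0.19, and from −0.31 to 0.30 within the 35 cells of liver_440s. The cells share plates and depth, and such weak correlations in sparse counts are given as values only. *Ngfr* and *Hhip* had a rho of −0.17: with 20 or more counts as the mark, 9 cells had both, 17 *Ngfr* only, 21 *Hhip* only and 25 neither. For *Lama1* and *Rspo3*, 13 cells had both, 1 *Lama1* only, 38 *Rspo3* only and 20 neither.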

How the data were processed

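Raw read counts per gene, as deposited by the authors without normalization, were used for 3491 cells on 22 plates. The submitters' processing notes name bcl2fastq, Bowtie, Bowtie2, Subread, featureCounts, Seurat and the builds GRCm38 and mm10, with no role or order, and whether counting used strand is not given in the sources used here. The authors removed low-quality cells and likely doublets before deposit, and their pagoda2 clusters and annotation were taken from the deposited metadata. The 92 ERCC rows of 46609 were left out of library sizes. Within a pool or plate, the cells of each group were added up and scaled to a total of 1000000 (CPM). Python 3.11.15 was used with pandas 2.3.3, scipy 1.17.1 and numpy 2.4.6. Genes needed 10 counts over both sums. Cells are not replicates and each sex is 1 pool, so no test was made and the plates give the spread. The male HSC sum held 13893714 counts, in which 3 counts are 0.216 CPM.

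Genes were named as follows: the identity, HSC and zonation genes the study names, and members of each other list by level or size of difference. Up to 6 members of each such list were planned, and for several lists more are named. The 8 largest differences each way against fibroblasts and 5 against each other group were also named. They were taken among genes with a count in at least 50% of cells of the higher side and the same sign in the female pool. Values of a few list members are not reported here, though the list counts include them. The members and the 26 lists were chosen with earlier results of these data known. Alternatives were the female pool, leaving out each plate, ratios within plates, mean CPM over cells, TMM library sizes (edgeR 4.0.16 in R 4.3.3), cells thinned to 50000 counts and other count minimums. For calls within plates, the log2 ratios of the single plates were averaged with equal weight, whatever the number of cells on a plate. The procedure was tested on simulated data with counting error only, so that test does not cover the spread between cells or plates.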

Additional observations from a re-analysis of the deposited data

Results flagged for a closer look

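For 6 of the 265 named or listed genes with enough counts in both pools, the log2 ratio of HSC over fibroblasts was past 4-fold in opposite directions in the male and the female pool. *Frzb* was at 2.39 in males and −2.88 in females, and *Chrd* at −2.71 and 6.56. *Ptger2* was at 2.66 and −3.22, *Wt1* at 3.09 and −2.24, *Gfap* at 3.47 and −3.70, and *Lyve1* at 2.53 and −2.97. Over all 16616 such genes this held for 276. The difference between the pools was not tested, and the female pool held 4 HSC of 1 plate, so that sex and plate cannot be told apart.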

How the results depend on the processing

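The number of genes higher in HSC than in fibroblasts was 857, and 348 within plates. The number lower was 2254, and 8383 in the female pool, 3774 without plate liver_440s and 4201 within plates. Against cHSC 1389 genes were higher, 710 within plates and 911 with at least 100 counts, and against mural cells 943, or 440 within plates. These settings against cHSC and mural cells, and the joint pool below, were chosen after seeing the data, and the cause of these changes was not tested. At 20 or more counts the share of HSC was 36.1% for *Ngfr*, 9.72% for *Myh11*, 77.8% for *Adamtsl2*, 70.8% for *Rspo3* and 6.94% for *Cdh3*, and in thinned cells the share with a count was 25.0% for *Myh11*.

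Of 155 genes higher in HSC than in each of the 7 groups, 96 were also higher than in each single fibroblast and mural cluster, a setting chosen after seeing the data. Among named genes past 4-fold in males, the log2 ratio to fibroblasts was reversed in the female pool for *Frzb* (−2.88), *Chrd* (6.56), *Ptger2* (−3.22), *Sucnr1* (−0.21), *Wt1* (−2.24), *Mcam* (−1.45), *Ntm* (−1.48), *Gfap* (−3.70), *Oas2* (−1.18), *Jun* (0.58), *Ier2* (0.02) and *Lyve1* (−2.97). Another 20 of the 265 named or listed genes, under 4-fold in males, were past it in the opposite direction in females, among them *Ngfr* (−5.32) and *Sema3d* (−4.15). Over all genes tested in both pools this held for 3440 of 16616, a larger share. With both pools together *Chrd* was at 0.73. *Epor* was at −3.48 without plate liver_440s and −1.53 within plates, and *Oas2* at −0.76 within plates. Without plate liver_Rb_573s *Kdr*, *Emcn* and *Robo4* were at 0.26, 0.30 and 0.20. Of 125 named genes past 4-fold, 92 were past it in the female pool, 99 within plates and 113 to 124 with 1 plate left out. No paired test was made, since no result here comes from a test. The values within plates set HSC beside fibroblasts of the same plates and are given without one. With 4 female cells and 5 to 35 cells on a male plate, low genes are limited by depth.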
